A study of Mus musculus with 12 samples.

Results

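The 9 genes described here encode the main heat shock chaperones of the cytosol and of the mitochondrial matrix: Hspa8, Hsph1 and Hspa4l of the HSP70 and HSP110 family, Hsp90aa1 and Hsp90ab1 of the HSP90 family, the J-domain genes Dnaja1 and Dnajb1, and the mitochondrial chaperonin genes Hspd1 and Hspe1. They were chosen by name, with earlier results of these data known, as 9 of the 22377 genes in the deposited transcript table. They hold 44 of its 74659 transcripts. The libraries were made from poly(A) RNA of mouse colon and number 12, with 4 labelled DSS, 4 labelled FGF1 and 4 labelled control. DSS, dextran sulfate sodium, is a polymer that injures the colon lining and is used in mice as a model of ulcerative colitis, and FGF1 is a secreted growth factor. The labels give the tissue and the treatment of each library but not the dose or duration, nor the strain, age or genotype of the mice, nor whether the FGF1 mice also received DSS. They do not say that the libraries came from separate animals either, so the p-values reflect no more than the variation among these samples, which may be technical.

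HSP70 proteins bind and release unfolded stretches of other proteins in a cycle driven by ATP. J-domain proteins deliver clients to HSP70 and start its ATP hydrolysis, HSP110 proteins act as nucleotide exchange factors that end the cycle, and HSP90 receives signalling proteins from HSP70 for late folding steps. In mitochondria, imported proteins are folded inside the cage formed by HSP60 (Hspd1) and its lid HSP10 (Hspe1). Members of each family fall into constitutive forms, such as Hspa8 and Hsp90ab1, and forms whose transcription rises with heat or other stress through the heat shock factor HSF1, such as Hsph1, Hsp90aa1, Dnaja1 and Dnajb1. HSF1 binds heat shock elements, which are arrays of the unit GAA in alternating orientation.

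Promoter sequence was available from RefSeq (build GRCm38.p6) for 6 of the 9 genes, and the stretches that hold heat shock element cores are shown because the genes that carry them differ below in how far they moved. The core searched was GAANNTTC or TTCNNGAA, each of which reads the same on both strands, in the 250 bases before each annotated start. It was present in 4 of the 6 genes. Capitals mark the cores, and each sequence runs 5′ to 3′ on the strand given with it.

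Hsph1, chr5:149636337-149636486, minus strand: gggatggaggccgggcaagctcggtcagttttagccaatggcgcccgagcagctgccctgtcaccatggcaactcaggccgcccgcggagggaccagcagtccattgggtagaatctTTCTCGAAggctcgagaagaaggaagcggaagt

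Dnaja1, chr4:40722318-40722467, plus strand: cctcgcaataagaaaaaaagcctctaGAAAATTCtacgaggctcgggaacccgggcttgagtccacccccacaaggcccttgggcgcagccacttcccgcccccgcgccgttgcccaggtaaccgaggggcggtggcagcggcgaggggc

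Hspd1 and Hspe1, chr1:55088025-55088131, plus strand: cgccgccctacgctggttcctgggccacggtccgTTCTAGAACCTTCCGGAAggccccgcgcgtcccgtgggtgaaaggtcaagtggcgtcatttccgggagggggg

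The Hsph1 core began 33 bases before the nearer of its RefSeq starts and the Dnaja1 core 124 bases before the first of its starts. Hspd1 and Hspe1 are transcribed away from each other out of the same short interval, so the stretch shown is shared. It holds 3 overlapping cores, and with them a longer array, a core with a further unit at the same spacing, which was not found in the windows of the other 4 genes. A core was present in the windows of 14.5% of the 26994 genes in the RefSeq promoter table and the longer array in 0.515%. The letters of the core were not in the windows read for Hspa4l and Dnajb1. Hspa8, Hsp90aa1 and Hsp90ab1 had no entry.

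Expression values are FPKM, a fragment count corrected for transcript length and sequencing output, and a gene's value is the sum over its listed transcripts. A library listed 45795 to 54313 transcripts above 0 and 11190 to 12721 genes of at least 1 FPKM. Read depth could not be recovered from the FPKM values, so the counting error of each value is unknown. Epithelial markers of the colon were present in every group: no gene of an 11-gene epithelial list, which includes the colonocyte genes Car1 and Slc26a3, was at 0, and its summed level was 12624 to 19723 FPKM in DSS, 9478 to 16250 in FGF1 and 8028 to 16609 in control libraries. The summed fibroblast, endothelial and macrophage markers were lower in every DSS library than in any control library. DSS 3 and DSS 4 stood apart, with the lowest fibroblast marker and the lowest mean chaperone values of the 12 libraries.

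In DSS colon 4 of the 9 chaperone genes were lower than in control colon and none was higher. Hsph1 was lower by the largest factor, followed by Hspa4l, Hsp90aa1 and Dnaja1. The heat-induced gene Dnajb1, the abundant constitutive genes Hspa8 and Hsp90ab1 and the mitochondrial pair Hspd1 and Hspe1 did not pass the test. In control libraries most of the Hsph1 value came from the transcript ENSMUST00000074846. This transcript had no entry in the 4 DSS libraries and was set to 0 there, as described below. From transcripts listed in all 12 libraries alone, which leave it out, the Hsph1 log2 fold change was 1.74 and not called. Leaving it out takes away most of Hsph1 in control libraries only, so that value cannot test the total. The test was limma on log2(FPKM + 1) in a single fit to all 12 libraries, with p-values adjusted by the Benjamini-Hochberg method over 12578 genes and a call at an adjusted p under 0.05. By the same rule 10.1% of all genes tested were called lower and 2.23% higher in DSS. All 9 genes were tested. Their median log2 fold change was -0.39, against -0.07 over all genes tested. Because the 9 genes were chosen with earlier results of these data known, the comparisons with all genes are descriptions and not independent evidence. In 5 of the 9 genes no DSS library reached the lowest control library, which was the case for 13.3% of all genes tested. Without DSS 3 and DSS 4 none of the 9 genes was called, at log2 fold changes of -1.70 for Hsph1, -0.84 for Hspa4l, -0.80 for Hsp90aa1 and -0.74 for Dnaja1 in DSS against control (limma adjusted p = 0.0614, 0.0614, 0.119 and 0.102), and 185 genes were called in place of 1549. In whole tissue, fewer cells of a type and less RNA per cell cannot be told apart.

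**Figure D1:**
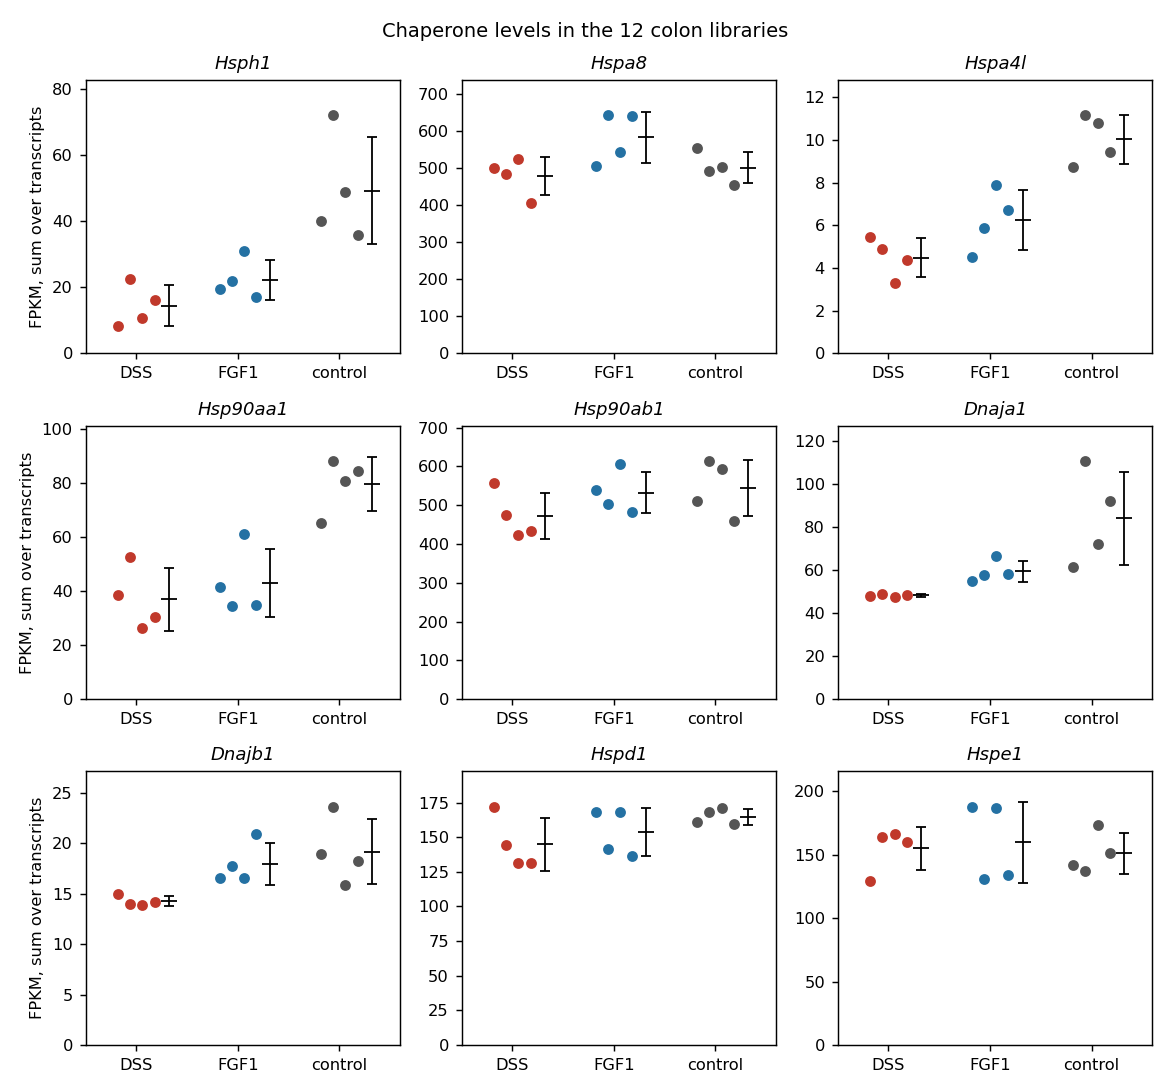
FPKM of each of the 9 chaperone genes (vertical axis, summed over transcripts, from 0, with its own range in each panel) in DSS, FGF1 and control libraries; points are libraries 1 to 4 of a group from left to right, and the bar beside them is the mean with its SD over 4 libraries. Hsph1, Hspa4l, Hsp90aa1, Dnaja1 and Dnajb1 have all 4 DSS points under all 4 control points, while Hspa8, Hsp90ab1, Hspd1 and Hspe1 overlap.

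Within the HSP70 and HSP110 family, Hsph1 and Hspa4l were called lower in DSS and Hspa8 was not. Hspa8 encodes the constitutive cytosolic HSP70, which folds new proteins and uncoats clathrin vesicles. It had 500, 484, 523 and 405 FPKM in DSS libraries 1 to 4, 506, 642, 544 and 642 in FGF1 libraries, and 555, 492, 504 and 454 in control libraries. The DSS and control ranges lay over each other, and its log2 fold change in DSS was -0.07 ± 0.13 (SE; limma adjusted p = 0.769; 95% interval -0.34 to 0.20). Hsph1 encodes Hsp105, the main HSP110 of mammalian cells and the nucleotide exchange factor of Hspa8. It had 8.39, 22.4, 10.6 and 16.2 FPKM in DSS libraries, 19.5, 21.8, 30.9 and 16.9 in FGF1 libraries, and 40.1, 71.9, 48.7 and 35.7 in control libraries. The highest DSS library held less than the lowest control library, and the mean was 3.41 times lower, 14.4 ± 6.26 FPKM in DSS and 49.1 ± 16.1 in control libraries (SD, n = 4 each). The log2 fold change was -1.74 ± 0.29 (limma adjusted p = 0.00484).

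Hspa4l encodes another HSP110 relative, abundant in testis. It was a low-level gene here, with 5.44, 4.88, 3.28 and 4.36 FPKM in DSS libraries, 4.53, 5.86, 7.90 and 6.74 in FGF1 libraries, and 8.75, 11.2, 10.8 and 9.42 in control libraries. The DSS group lay wholly under the control group, with a log2 fold change of -1.02 ± 0.17 (limma adjusted p = 0.00465), and a +1 scale understates the change of a gene at this level. The ratio of means was 2.24 times lower in DSS.

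Of the HSP90 pair, Hsp90aa1 was called lower and Hsp90ab1 was not. Hsp90aa1, the stress-responsive HSP90, had 38.5, 52.7, 26.4 and 30.4 FPKM in DSS libraries, 41.7, 34.6, 61.2 and 34.8 in FGF1 libraries, and 65.2, 88.2, 80.8 and 84.4 in control libraries. Every DSS library was under every control library, the mean was 2.15 times lower, and the log2 fold change was -1.12 ± 0.22 (limma adjusted p = 0.00947). Hsp90ab1, the constitutive HSP90, had 556, 475, 424 and 433 FPKM in DSS libraries, 540, 503, 605 and 482 in FGF1 libraries, and 510, 613, 594 and 460 in control libraries. DSS libraries 3 and 4 lay under the lowest control library while DSS 1 and 2 did not, and the log2 fold change of -0.20 ± 0.13 did not pass the test (limma adjusted p = 0.364; 95% interval -0.50 to 0.09).

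Dnaja1 encodes an HSP40 that works with Hspa8 on newly made proteins and on steroid receptors. It had 48.2, 48.9, 47.3 and 48.4 FPKM in DSS libraries, 55.1, 57.9, 66.6 and 58.2 in FGF1 libraries, and 61.5, 110.6, 72.1 and 91.9 in control libraries. The 4 DSS libraries were close to each other and the control libraries were spread widely above them; the log2 fold change was -0.75 ± 0.15 (limma adjusted p = 0.0103) and the mean was 1.74 times lower. Dnajb1, a J-domain partner strongly induced by heat, had 15, 13.9, 13.9 and 14.1 FPKM in DSS libraries, 16.6, 17.8, 16.6 and 20.9 in FGF1 libraries, and 19.0, 23.6, 15.9 and 18.3 in control libraries. The DSS group again lay under the control group, but the log2 fold change of -0.39 ± 0.12 missed the threshold (limma adjusted p = 0.0521). Leaving out control 3, the lowest control library, gave an adjusted p of 0.0382, and leaving out FGF1 4 gave 0.0488.

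Neither mitochondrial gene passed the test. Hspd1 had 172, 144, 132 and 132 FPKM in DSS libraries, 168, 142, 168 and 136 in FGF1 libraries, and 161, 168, 171 and 159 in control libraries. DSS library 1 was the highest of all 12 and DSS 2 to 4 were under every control library, with a log2 fold change of -0.19 ± 0.11 (limma adjusted p = 0.292; 95% interval -0.44 to 0.05). Hspe1 had 129, 164, 166 and 160 FPKM in DSS libraries, 188, 131, 187 and 134 in FGF1 libraries, and 142, 137, 174 and 152 in control libraries. Its groups overlapped throughout, and its log2 fold change was 0.03 ± 0.15 (limma adjusted p = 0.911; 95% interval -0.29 to 0.35). The genes that share the longer array shown above were among those that moved least between DSS and control. Hspa8, Hsp90ab1, Hspd1 and Hspe1 have processed pseudogene copies in the mouse genome, and how multiply aligned reads were handled is not given in the sources used here. The share of reads from such copies in their levels was not measured.

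FPKM is scaled to the library as a whole, and DSS libraries differ from control libraries in many genes. Scaling by the median of ratios moved the all-gene median of DSS against control by 0.12 on the log2 scale, and the calls over all genes changed to 677 higher and 982 lower, against 280 higher and 1269 lower without it. Under it Hsph1, Hspa4l, Hsp90aa1 and Dnaja1 kept their calls, with log2 fold changes of -1.60, -0.89, -0.98 and -0.61, whereas Hspa8 turned to 0.07. Scaling to an equal total of listed FPKM turned Hspe1 to -0.03 and brought Dnajb1 past the threshold.

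A ratio of paired genes within a library does not depend on that scaling; the pairs were chosen after the levels had been seen. The ratio of Hsp90aa1 to Hsp90ab1 was 0.0782 ± 0.0222 in DSS, 0.0798 ± 0.0146 in FGF1 and 0.148 ± 0.0246 in control libraries (SD, n = 4 each). In this ratio neither the DSS nor the FGF1 libraries overlapped the control libraries. Each difference had an exact two-sided permutation p of 0.0286, which is the smallest that 4 against 4 libraries allow, and 0.0857 after adjustment over the 12 ratio tests, so neither passed. The ratio of Hsph1 to Hspa8 showed the same order, at 0.0308 ± 0.0145 in DSS, 0.0389 ± 0.0129 in FGF1 and 0.0984 ± 0.0335 in control libraries, with the same exact p-values. It carries the limit given above for the Hsph1 value. Dnaja1 to Dnajb1 stood at 3.39 ± 0.124 in DSS, 3.35 ± 0.508 in FGF1 and 4.38 ± 0.784 in control libraries and overlapped between groups (exact permutation p = 0.114 for DSS against control). Hspd1 to Hspe1 stood at 0.955 ± 0.251 in DSS, 0.974 ± 0.0922 in FGF1 and 1.10 ± 0.105 in control libraries (exact permutation p = 0.257 for DSS against control), and none of the 12 ratio tests passed after adjustment.

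**Figure D2:**
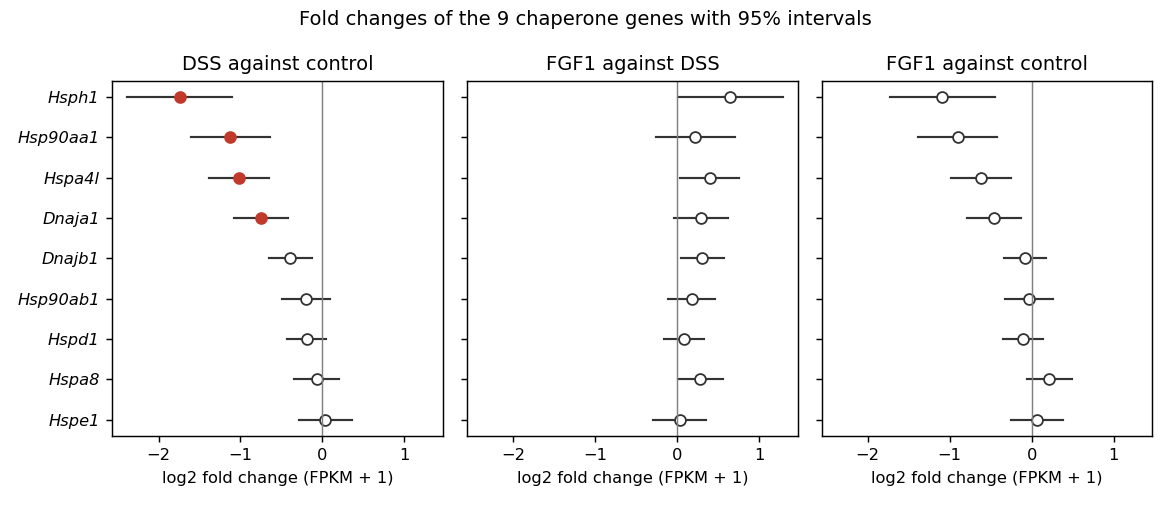
Log2 fold change of each chaperone gene (horizontal axis, log2 of FPKM + 1) in DSS against control, FGF1 against DSS and FGF1 against control; lines are 95% intervals from limma and filled red points passed an adjusted p of 0.05. The 4 filled points, Hsph1, Hsp90aa1, Hspa4l and Dnaja1, lie in the DSS against control panel, and all 9 points lie to the right of 0 in FGF1 against DSS.

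In FGF1 colon none of the 9 genes was called against DSS or against control, although the mean of each was above its DSS mean. Against DSS all 9 fold changes were positive, with a median log2 fold change of 0.29, against 0.05 over all genes tested; the sign of Hspe1 turned to -0.04 with median-of-ratios scaling, and that of Hsp90aa1 to -0.10 without DSS 3 and DSS 4. By limma 0 of 9 were called at an adjusted p under 0.05, where 0.0557% of all genes were called, and 4 of 9 were higher at an unadjusted p under 0.05, against 8.70% of all genes. These were Hsph1 (log2 fold change 0.65 ± 0.29, limma adjusted p = 0.394), Hspa4l (0.40 ± 0.17, adjusted p = 0.356), Dnajb1 (0.31 ± 0.12, adjusted p = 0.316) and Hspa8 (0.29 ± 0.13, adjusted p = 0.380). In Dnaja1 and Dnajb1 every FGF1 library was above every DSS library, which was the case in this direction for 4.45% of all genes. Dnaja1 averaged 59.4 ± 4.95 FPKM in FGF1 and 48.2 ± 0.694 in DSS libraries, and Dnajb1 averaged 18 ± 2.06 FPKM in FGF1 and 14.2 ± 0.498 in DSS libraries (SD, n = 4 each). Full separation of 4 against 4 libraries fixes the exact permutation p at 0.0286, the smallest possible, so that p adds nothing to the separation itself. By limma Dnaja1 stood at 0.29 ± 0.15 in FGF1 against DSS and was not called (adjusted p = 0.466).

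Against control, FGF1 colon had 0 of 9 genes called by limma, where 0.0795% of all genes were called, and 4 of 9 were lower at an unadjusted p under 0.05, against 9.91% of all genes. Hsph1 averaged 22.3 ± 6.07 FPKM in FGF1 and 49.1 ± 16.1 in control libraries, a log2 fold change of -1.09 ± 0.29 (limma adjusted p = 0.154). Hsp90aa1 averaged 43.1 ± 12.5 FPKM in FGF1 and 79.6 ± 10.1 in control libraries, a log2 fold change of -0.90 ± 0.22 (limma adjusted p = 0.127), which became -1.08 with an adjusted p of 0.0486 when FGF1 3, its highest FGF1 library, was left out. Hspa4l averaged 6.26 ± 1.42 FPKM in FGF1 and 10.03 ± 1.13 in control libraries (-0.62 ± 0.17, limma adjusted p = 0.151). In these 3 genes no FGF1 library reached the lowest control library, which was the case for 6.61% of all genes. Dnaja1 was the fourth, at -0.46 ± 0.15 (limma adjusted p = 0.208). Hspa8 was the gene with the largest positive value, 0.21 ± 0.13 (limma adjusted p = 0.484; 95% interval -0.06 to 0.49). DSS against control and FGF1 against control share the control libraries, and FGF1 against DSS shares the DSS libraries with the first, so the 3 sets of values are not independent of each other.

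Hsph1 also differed in which transcript carried it. Its exon 12, a coding exon of 132 bases at chr5:149623465-149623596 (GRCm38, minus strand), adds 44 codons without changing the frame. The form that holds it corresponds to Hsp105α, the constitutive protein, and the form that lacks it to Hsp105β, which in mouse cells is known to be made on heat shock. The exon is shown in capitals between the 15 bases on either side of it in the transcript, followed by the junction of the form without it.

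Hsph1 exon 12 included: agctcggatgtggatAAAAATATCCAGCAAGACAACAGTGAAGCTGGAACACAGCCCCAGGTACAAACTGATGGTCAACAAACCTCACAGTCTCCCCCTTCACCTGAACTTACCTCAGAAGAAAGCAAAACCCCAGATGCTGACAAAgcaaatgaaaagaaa

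Hsph1 exon 12 skipped: agctcggatgtggatgcaaatgaaaagaaa

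The skipped form ENSMUST00000074846 had no entry in the 4 DSS libraries or in FGF1 1, where its value was set to 0. In FGF1 libraries 2 to 4 it had 19.4, 28.5 and 12.8 FPKM, and in control libraries 36.8, 64.8, 44.8 and 31.9 FPKM. The 5 libraries without an entry gave nearly all of their Hsph1 to the exon-containing transcripts, which had 7.47, 22.0, 10.3 and 16 FPKM in DSS libraries 1 to 4 and 19.2, 1.26, 1.68 and 2.97 in FGF1 libraries, against 2.57, 4.83, 3.27 and 2.69 in control libraries. Of the FPKM in either form, the included form thus held 100% in the 4 DSS libraries and in FGF1 1, 5.56% to 18.9% in FGF1 2 to 4, and 6.53% to 7.77% in control libraries. FGF1 1 thus stood with the DSS libraries. A missing entry can be a transcript that was not assembled in that library, so the 0 is not a measured absence, and read support for the junction was not analysed here. The gene total is less exposed to this assignment, but the 2 forms have annotated lengths of 3240 bases (skipped) and 3802 bases (ENSMUST00000202361, included), and FPKM divides by length. Restricted to transcripts listed in all 12 libraries, which leaves the skipped form out, the Hsph1 log2 fold change in DSS against control turned to 1.74 (limma adjusted p = 0.0854). The skipped form held 89.45% to 92.02% of Hsph1 in control libraries and 0% in DSS libraries. Leaving it out thus lowers the control values alone, and the restricted value cannot test the total. How far the missing entries lowered the DSS total was not tested.

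**Figure D3:**
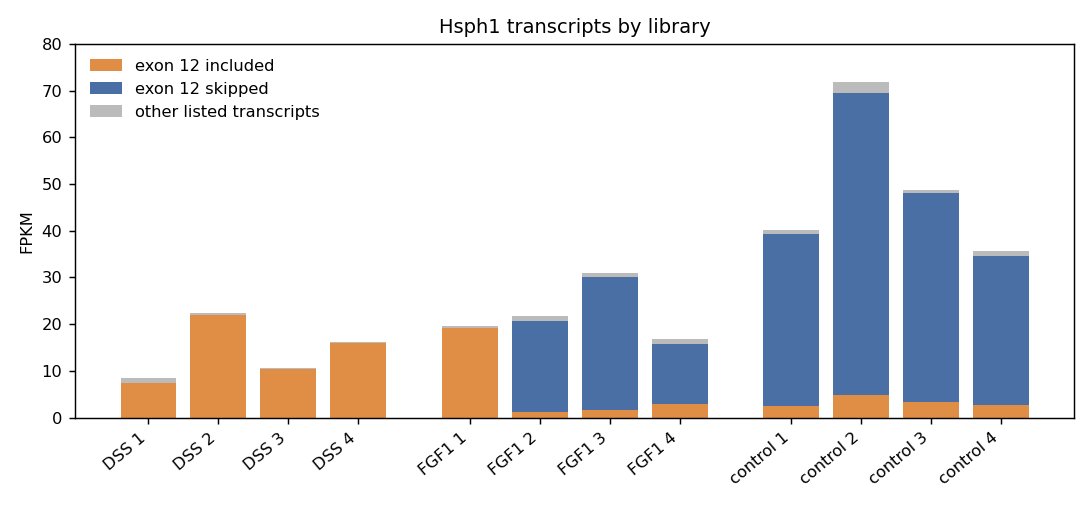
FPKM of Hsph1 transcripts (vertical axis) stacked by library, DSS 1 to 4, FGF1 1 to 4 and control 1 to 4, for transcripts that include exon 12, the transcript that skips it and other listed transcripts. The skipped form fills most of each control bar, with 31.9 to 64.8 FPKM, and has no entry in the DSS libraries or in FGF1 1.

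The other members rested on their transcripts in different ways. In Hsp90aa1, Hsp90ab1 and Dnajb1 a single protein-coding transcript held at least 91.0% of the gene in every library, and Hspe1 had only 1 listed transcript. Values taken from start events alone, which some transcripts have in part of the libraries only, turned Hsp90aa1 to 0.87 in DSS against control (limma adjusted p = 0.778). In Hspd1 the leading transcript held 85.0% to 98.5%. Hspa8 had 77.3% to 96.2% in its leading transcript ENSMUST00000015800, and most of the remainder in ENSMUST00000149936, a form annotated with a retained intron. That form had 61.3, 50.7, 73.7 and 24.3 FPKM in DSS libraries, 37.8, 88.0, 78.4 and 106.3 in FGF1 libraries, and 49.7, 13.3, 39.3 and 39.3 in control libraries. FGF1 2 to 4 were the highest of all 12 libraries in it and FGF1 1 lay below 3 of the 4 control libraries, so the groups overlapped. The protein-coding Hspa8 transcript alone had 387, 414, 441 and 373 FPKM in DSS, 462, 530, 443 and 504 in FGF1, and 493, 473, 455 and 403 in control libraries.

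Dnaja1 was spread over 10 listed transcripts whose shares shifted between libraries of the same group. Its transcript with the highest mean, ENSMUST00000129204, is annotated as a processed transcript and not as protein-coding. It held 0.958% to 45.9% of the gene in DSS, 29.9% to 53.1% in FGF1 and 1.02% to 46.5% in control libraries. Its mean was 9.99 ± 10.6 FPKM in DSS and 27.4 ± 20.5 in control libraries. The coding form ENSMUST00000030118 led in DSS 2, DSS 3 and control 1 with 44.1, 35.4 and 56.6 FPKM. This coding form differed little on average, with 23.8 ± 18.8 FPKM in DSS and 25.1 ± 21.8 in control libraries. A shorter coding form of 826 bases, ENSMUST00000125442, averaged 6.25 ± 7.54 and 18.3 ± 22.3 FPKM. Single Dnaja1 transcripts were therefore less steady than the sum, and with the highest transcript alone the fall of Dnaja1 in DSS was not called (log2 fold change -1.39, limma adjusted p = 0.508), nor was it with transcripts listed in all 12 libraries (-0.53, limma adjusted p = 0.204). Hspa4l had 3.58, 4.36, 2.56 and 2.88 FPKM in its coding transcript ENSMUST00000204702 in DSS libraries, 4.29, 3.95, 5.32 and 4.44 in FGF1 libraries, and 6.01, 8.58, 6.45 and 5.01 in control libraries, and this transcript alone again kept the DSS libraries under the control libraries.

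The chaperones were then set beside 101 other genes of the same network in 10 lists, of which 98 were in the table and 95 were tested. These lists too were chosen with earlier results of these data known. In DSS against control, 2 of the 95 rose and 16 fell, with a median log2 fold change of -0.11, against 2.23% of all genes tested called higher, 10.1% called lower and a median of -0.07. The count of 16 lower was 8 with median-of-ratios scaling, 9 with the replicate block, 5 without DSS 3, 8 without control 3, 9 without DSS 4, control 1 or control 4, 10 without FGF1 2, 0 without both DSS 3 and DSS 4, and 0 with the smooth muscle covariate. HSF1 itself did not pass the test, with 11.4 ± 0.943 FPKM in DSS, 13.9 ± 3.40 in FGF1 and 13.6 ± 4.92 in control libraries (limma adjusted p = 0.687 for DSS against control), and 0 of the 4 listed HSF regulators were called by limma, with 1 lower at an unadjusted p under 0.05, against 20.5% of all genes tested. Hsbp1, a small binding partner of HSF1, was the most abundant of these, at 69.8 ± 3.87 FPKM in DSS, 73.2 ± 2.95 in FGF1 and 74.6 ± 0.884 in control libraries (limma adjusted p = 0.458 for DSS against control).

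Of 11 nucleotide exchange and adaptor genes of HSP70, 3 fell in DSS and none rose. Bag3, a nucleotide exchange factor that HSF1 induces and that directs clients to autophagy, had 19.5, 17.1, 18.1 and 16.6 FPKM in DSS libraries, 26.2, 25.5, 30.7 and 23.2 in FGF1 libraries, and 24.9, 29.9, 32.3 and 27.5 in control libraries. Its DSS libraries lay under all others (log2 fold change -0.65 ± 0.11 against control, limma adjusted p = 0.00484), and FGF1 against DSS gave 0.54 ± 0.11 (adjusted p = 0.0863). Dnaja4, a close relative of Dnaja1, averaged 3.13 ± 0.143 FPKM in DSS and 7.46 ± 1.63 in control libraries (limma adjusted p = 0.00782), the single call among 14 other J-domain genes. Dnajc7, a J-domain protein with tetratricopeptide repeats, was the most abundant of that list, with 79.6 ± 4.29 FPKM in DSS, 77.9 ± 3.41 in FGF1 and 67.3 ± 3.74 in control libraries. Every DSS and FGF1 library held more Dnajc7 than every control library, and neither difference passed the test (log2 fold change 0.24 ± 0.08 in DSS and 0.21 ± 0.08 in FGF1 against control, limma adjusted p = 0.0705 and 0.270). Stip1, the HOP protein that hands clients from HSP70 to HSP90, averaged 45.6 ± 13.1 FPKM in DSS and 70.1 ± 8.43 in control libraries (limma adjusted p = 0.0365), and Bag2 averaged 4.11 ± 1.75 in DSS and 17.2 ± 10.3 in control libraries (limma adjusted p = 0.0334). Bag1 was the most abundant of these adaptor genes and did not pass, with 166 ± 30.5 FPKM in DSS and 171 ± 21.7 in control libraries (limma adjusted p = 0.847).

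Of the other HSP70 and HSP110 genes, 7 of 9 were in the table, 5 were tested, 2 fell and none rose. Hspa12a averaged 0.532 ± 0.282 FPKM in DSS and 2.16 ± 0.641 in control libraries (limma adjusted p = 0.0107), and Hspa13, which encodes a microsomal HSP70 relative, averaged 5.50 ± 0.589 in DSS and 8.52 ± 0.890 in control libraries (limma adjusted p = 0.0201). Hspa4, the closest relative of Hspa4l, averaged 36.0 ± 1.87 FPKM in DSS and 42.7 ± 2.92 in control libraries; its groups did not overlap, yet it missed the threshold (limma adjusted p = 0.0691). Hspa14 averaged 17.0 ± 2.56 FPKM in DSS and 17.5 ± 2.39 in control libraries (limma adjusted p = 0.874), and Hspa1l 1.03 ± 0.306 in DSS and 1.72 ± 0.454 in control libraries (limma adjusted p = 0.169). Hspa2 and Hspa12b were below the filter on low values, at 0.137 and 0.305 FPKM on average in DSS and 0.0565 and 1.16 in control libraries. The inducible HSP70 genes Hspa1a and Hspa1b had no entry in the transcript table used here, so their levels are not known.

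Among 15 HSP90 co-chaperones 1 rose and 2 fell in DSS. Fkbp5, an HSP90 partner that glucocorticoids induce, had 204, 144, 155 and 170 FPKM in DSS libraries, 68.6, 109.5, 51.8 and 77.2 in FGF1 libraries, and 68.3, 62.7, 38.8 and 40.7 in control libraries. All DSS libraries were above all others, with a log2 fold change of 1.69 ± 0.24 against control (limma adjusted p = 0.00327), and FGF1 against DSS stood at -1.16 ± 0.24 (adjusted p = 0.0838). Chordc1, which encodes an HSP90 partner with zinc-binding CHORD domains, averaged 9.27 ± 1.52 FPKM in DSS and 13.6 ± 2.52 in control libraries (limma adjusted p = 0.0370). Fkbp4, the steroid receptor partner and the most abundant gene of the list, had 138 ± 17.5 FPKM in DSS, 156 ± 19.9 in FGF1 and 168 ± 18.8 in control libraries and did not pass (limma adjusted p = 0.173 for DSS against control).

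The chaperonins and prefoldin of the cytosol had 0 calls by limma in every comparison, and also 0 at an unadjusted p under 0.05. The 8 CCT genes, which form the cytosolic folding cage for actin and tubulin, had a median log2 fold change of 0.07 in DSS against control, and Cct2, the most abundant, had 108 ± 21.6 FPKM in DSS, 102 ± 7.23 in FGF1 and 91.6 ± 7.49 in control libraries (limma adjusted p = 0.308 for DSS against control). The 6 prefoldin genes had a median of 0.04, and Pfdn5 stood at 96.1 ± 21.1 FPKM in DSS, 86.6 ± 6.11 in FGF1 and 80.1 ± 5.46 in control libraries (limma adjusted p = 0.298 for DSS against control). The mitochondrial list also stood near 0, with a median of 0.10 over 15 genes and 1 call. That was Dnajc19, a J-domain protein of the inner membrane import motor, at 21.7, 22.3, 24.9 and 24.4 FPKM in DSS libraries, 15, 16.4, 14.9 and 15 in FGF1 libraries, and 17.3, 17.2, 16.4 and 12.4 in control libraries (log2 fold change 0.54 ± 0.11 in DSS, limma adjusted p = 0.0105). Hspa9, the mitochondrial HSP70 that imports proteins toward the Hspd1 and Hspe1 cage, was at 124 ± 13.2 FPKM in DSS, 111 ± 6.16 in FGF1 and 113 ± 5.23 in control libraries (limma adjusted p = 0.449 for DSS against control).

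Small heat shock proteins hold unfolded proteins in a soluble state without ATP. Of 6 small heat shock genes tested, 3 fell, with a median log2 fold change of -1.45. Hspb1, encoding HSP27, had 41.6, 33.8, 18.6 and 10.3 FPKM in DSS libraries, 70.03, 50.1, 112.0 and 27.0 in FGF1 libraries, and 56.9, 47.4, 132.8 and 103.3 in control libraries (limma adjusted p = 0.0424 for DSS against control). Hspb6 averaged 8.22 ± 3.74 FPKM in DSS and 26.0 ± 9.85 in control libraries (limma adjusted p = 0.0356), and Cryab, αB-crystallin, 6.54 ± 2.91 in DSS and 21.9 ± 12.4 in control libraries (limma adjusted p = 0.0449). Small heat shock genes are strongly expressed in muscle, and the 15-gene smooth muscle list summed to 784 to 2582 FPKM in DSS, 1484 to 8735 in FGF1 and 3296 to 10173 in control libraries, with 4 of its 15 genes called lower in DSS; its part in these values was not tested. In FGF1 against DSS the small heat shock genes had a median of 1.08, and 4 of 6 were higher at an unadjusted p under 0.05 while none was called. Of 11 endoplasmic reticulum chaperones 5 fell and none rose, with a median of -0.52. Summed markers of secretory cells were also lower in DSS, though not every gene was. The 8-gene B and plasma cell list summed to 44.2 to 110.2 FPKM in DSS, 126 to 500.4 in FGF1 and 814 to 2367 in control libraries. Of its 5 tested genes 3 had negative fold changes in DSS, and these 3 were called lower. The 8-gene goblet cell list summed to 4443 to 5915 FPKM in DSS, 5387 to 7770.1 in FGF1 and 6039 to 9796 in control libraries, with 3 genes called lower and 1 higher in DSS and a median log2 fold change of -0.51. Of the 8 goblet genes 5 had negative fold changes. Their mean log2(FPKM + 1) in DSS libraries, 8.14 to 8.36, lay inside the control range of 7.94 to 8.74. The part of these cells in the values of the endoplasmic reticulum list was not tested. Hyou1, the HSP110 relative of that compartment, averaged 13.1 ± 1.59 FPKM in DSS and 22.6 ± 2.62 in control libraries (limma adjusted p = 0.00643), and Pdia4 and Pdia6, which form disulfide bonds, stood at -0.55 and -0.61 on the log2 scale (limma adjusted p = 0.00840 and 0.0152). Calr, the calcium-binding lectin chaperone and the most abundant of the list, had 261 ± 44.9 FPKM in DSS, 307 ± 46.3 in FGF1 and 371 ± 17.5 in control libraries (limma adjusted p = 0.0365 for DSS against control). Hspa5, the HSP70 called BiP, did not pass at 72.4 ± 24.3 FPKM in DSS and 136 ± 61.1 in control libraries (limma adjusted p = 0.139). By limma, 0 of the 95 network genes were called in either comparison of FGF1; at an unadjusted p under 0.05, 13 were higher and 3 lower in FGF1 against DSS, where 8.70% of all genes were higher and 3.71% lower, and 2 were higher and 7 lower in FGF1 against control, where 4.02% of all genes were higher and 9.91% lower.

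**Figure D4:**
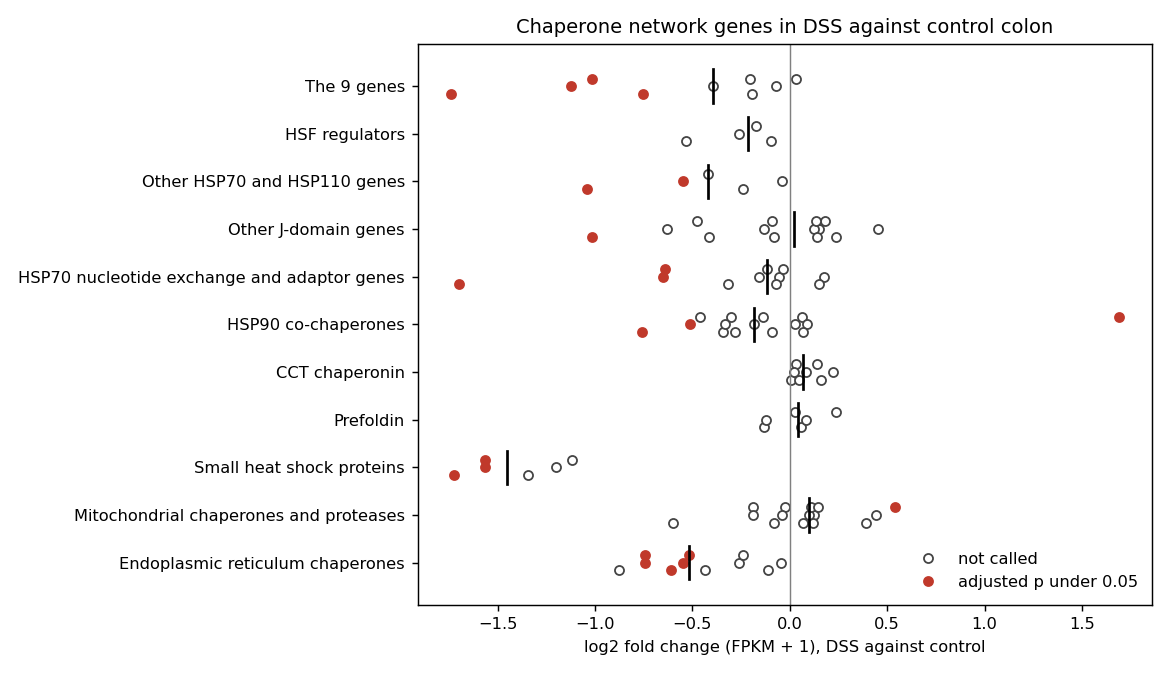
Log2 fold change (horizontal axis, log2 of FPKM + 1) of the 9 genes and of each tested gene of the 10 network lists in DSS against control; each point is a gene, filled red points passed an adjusted p of 0.05 and the vertical bar is the median of the list. Fkbp5 is the isolated point at 1.69, the prefoldin points lie between -0.13 and 0.24, and the small heat shock genes lie between -1.73 and -1.12.

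Of a pair of cold-inducible genes, Rbm3 rose in DSS. Rbm3, an RNA-binding protein that rises when cells are cooled and with other mild stresses, had 262, 90.9, 256 and 95.1 FPKM in DSS libraries, 76.4, 79.5, 63.9 and 120.3 in FGF1 libraries, and 65.3, 59.6, 69.5 and 64.0 in control libraries. DSS 1 and 3 stood far above all other libraries, and DSS 2 and 4 were above every control library but below FGF1 4 (log2 fold change 1.25 ± 0.34 in DSS against control, limma adjusted p = 0.0324). Cirbp, its relative, had 61.8, 31.5, 25.9 and 38.5 FPKM in DSS libraries, 36.1, 21.9, 27.1 and 19.8 in FGF1 libraries, and 19.2, 24.2, 35.4 and 28.9 in control libraries, and did not pass (0.49 ± 0.27, limma adjusted p = 0.264).

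Across the 12 libraries the called genes followed the mean of the others most closely. Hspa4l had a Pearson correlation of 0.88 with the mean of the other 8 genes, Hsp90aa1 0.84, Hsph1 0.83 and Dnaja1 0.80, whereas Hspa8 had -0.01 and Hspe1 -0.12. Hsph1 and Hsp90aa1 had r = 0.88 with each other, and the promoter-sharing pair Hspd1 and Hspe1 r = 0.15. Hspd1 ran closer to Hsp90ab1, with r = 0.85. These values describe 12 libraries in 3 groups that share their group differences, library scaling and tissue makeup.

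Outside the 9 genes, the 5622 genes with a mean of at least 10 FPKM were ranked by correlation with the standardised mean of the 9. Most alike were Lbh (r = 0.95), Serpinh1 (0.94), Tpcn1 (0.94), Ogn (0.94), Dpt (0.93) and Anxa6 (0.93), and most opposed were Prodh (-0.94), Ndufb8 (-0.94) and Tmem54 (-0.93). Serpinh1, which encodes the collagen chaperone HSP47, averaged 12.8 FPKM in DSS, 35.8 in FGF1 and 72.2 in control libraries. Ogn and Dpt encode matrix proteins of connective tissue and averaged 7.12 and 7.39 FPKM in DSS, 20.5 and 17.6 in FGF1, and 36.0 and 57.5 in control libraries. Prodh, a proline-degrading enzyme, averaged 20.3 FPKM in DSS, 9.76 in FGF1 and 6.49 in control libraries.

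Markers of stromal cells moved with the same libraries. All 11 fibroblast and matrix genes fell in DSS against control, with a median log2 fold change of -2.56 and a summed level of 17.6 to 109 FPKM in DSS, 90.8 to 259 in FGF1 and 303 to 427 in control libraries. Of the smooth muscle genes 4 of 15 fell, of 7 tested endothelial genes 6 fell, and of 8 tested macrophage genes 6 fell. Endothelial markers summed to 6.33 to 29.0 FPKM in DSS, 18.5 to 33.5 in FGF1 and 46.7 to 59.2 in control libraries, and macrophage markers to 20.6 to 46.7 in DSS, 33.4 to 106 in FGF1 and 83.4 to 141 in control libraries. Each marker of these lists had a value above 0 in at least 1 library of each group. In the 11 epithelial genes 1 rose and none fell, with a median of 0.10. Neutrophil markers summed to 2.59 to 137 FPKM in DSS, 4.22 to 15.3 in FGF1 and 0.264 to 4.30 in control libraries, with no value above 0 for Cxcr2, Ngp and Retnlg in any control library or for Ngp in any FGF1 library. T cell markers summed to 2.24 to 7.40 FPKM in DSS, 4.19 to 12.1 in FGF1 and 3.24 to 10.9 in control libraries and overlapped.

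With a covariate for the smooth muscle score Hsph1, Hspa4l, Hsp90aa1 and Dnaja1 had log2 fold changes of -1.65, -0.88, -0.66 and -0.72 in DSS against control and were not called (limma adjusted p = 0.105, 0.109, 0.224 and 0.145), and 29 genes were called in all. The smooth muscle score was 4.76 to 6.55 in DSS and 6.95 to 8.57 in control libraries, without overlap. In FGF1 libraries it was 5.67 to 8.18, and the fit used all 12 libraries. DSS and control libraries shared no score level, so the fit compared them only by extending its line beyond the scores seen in each. No conclusion is drawn from the lost calls. With the epithelial score as a covariate, an alternative chosen after seeing the data, the 4 kept their calls and Dnajb1 joined them. That score overlapped, at 9.04 to 9.56 in DSS and 8.89 to 9.14 in control libraries, so the 2 fits are not alike. The part of tissue makeup in these differences was not tested beyond these values.

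**Figure D5:**
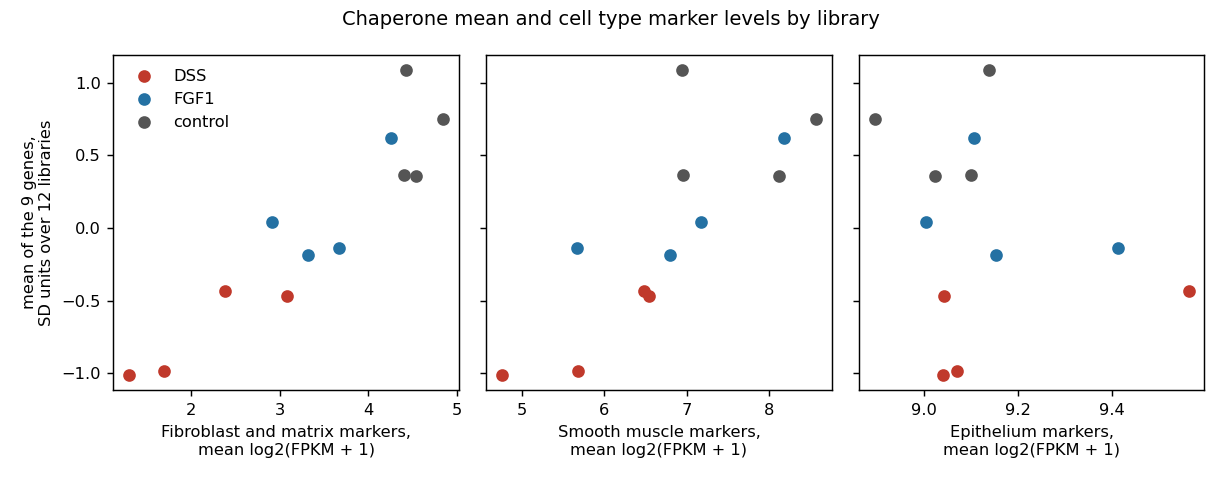
Mean of the 9 chaperone genes in each library (vertical axis, each gene in SD units over the 12 libraries) against the mean log2(FPKM + 1) of fibroblast and matrix, smooth muscle and epithelial markers (horizontal axes); each point is a DSS, FGF1 or control library. DSS libraries lie at 1.3 to 3.08 on the fibroblast axis, FGF1 libraries at 2.92 to 4.25 and control libraries at 4.41 to 4.85, while all 12 lie within 8.89 to 9.56 on the epithelial axis.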

How the data were processed

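The authors deposited, for each of 12 mouse colon libraries, lists of transcript structure events with the FPKM of the transcript each event belongs to. The submitters' processing notes name build GRCm38 and the programs StringTie 1.3.4d, HISAT2 2.0.4, cutadapt 1.9 and edgeR without a version; whether strand was used is not given in the sources used here. Deposited FPKM were used without further scaling. Each transcript was taken once and summed per gene, and a transcript missing from a library's list was set to 0. Symbols and positions came from GENCODE vM21, promoters from RefSeq. Low FPKM values did not resolve into whole reads (at best 17.8% to 21.5% lay within 0.05 of a whole step), so no count model was run and depth is unknown.

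Genes with at least 1 FPKM in at least 4 libraries entered limma 3.58.1 in R 4.3.3 (trended empirical Bayes, two-sided, log2(FPKM + 1), Benjamini-Hochberg adjustment over 12578 genes). Errors of levels are SDs and errors of log2 fold changes SEs. Exact permutation tests used all 70 regroupings of 4 against 4 libraries. Named genes were the 9 genes, up to 3 called genes per network list and comparison by smallest adjusted p or else its most abundant tested gene, the 6 most and 3 least correlated genes, and Hsf1, Cirbp, Rbm3, Hspa5 and the other HSP70 and HSP110 genes; others named were chosen after their values were seen. One gene of the HSP90 co-chaperone list is not reported here by name. The 9 genes and all lists were chosen with earlier results of these data known. Replicate numbers were checked for pairing: 3 of 12 same-number pairs deviated together (r over 0.1; range -0.22 to 0.40), so the numbers were not treated as pairs. The scripts were tested on simulated data. Alternatives covered the pseudocount, filter, scaling, transcript choice, model, covariates and left-out libraries.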

Additional observations from a re-analysis of the deposited data

How the results depend on the processing

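The log2 fold changes of the 9 genes in 3 comparisons were recomputed under 30 alternatives, and 761 of 810 values kept their direction and their side of the threshold. The cause of the others was not tested. Of the rest, 32 changed sign, 2 of them with a lost call, 11 others lost a call and 6 gained one, so 13 calls were lost in all. In DSS against control, leaving out any single library kept the calls of Hsph1, Hspa4l, Hsp90aa1 and Dnaja1. Dropping single libraries or 2 pairs of libraries left 0 to 5 of the 9 genes and 0 to 17 network genes lower, 1 to 2 network genes higher and 185 to 1982 genes called in all in DSS against control. It gave 0 to 43 genes in FGF1 against DSS, and 0 to 83 genes, 0 to 1 of the 9 and 0 to 1 network genes in FGF1 against control; the lowest DSS counts came without DSS 3 and DSS 4.

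Values taken from start events alone, which some transcripts have in part of the libraries only, called 727 genes in DSS against control, 1 in FGF1 against DSS and 1 in FGF1 against control, with 2 of the 9 genes and 7 network genes lower and 1 higher, and put Hsp90aa1 at 0.87 in DSS and 3.50 in FGF1 against control. Transcripts listed in all 12 libraries, which leave out the skipped Hsph1 form, called 922, 4 and 1 genes and 2 of the 9, and put Hsph1 at 1.74 in DSS against control, -1.54 in FGF1 against DSS and 0.20 in FGF1 against control. The highest transcript alone called 844 genes in DSS against control, with 1 network gene higher and 10 lower, put Hsph1 at -5.46 there and Dnaja1 at 0.61 in FGF1 against control. The smooth muscle covariate called 29, 2 and 2 genes, 0 of the 9 and 0 network genes either way; it put Hspd1 at 1.7e-05 in DSS against control, Hsp90aa1 at -0.062, Hspd1 at -0.032 and Hspe1 at -0.096 in FGF1 against DSS, and Hsp90ab1 at 0.039 in FGF1 against control. The epithelial covariate called 2 genes in FGF1 against control.

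Median-of-ratios scaling called 8 network genes lower in DSS and 15 genes in FGF1 against DSS, and gave Hspa8 0.073 in DSS against control, Hspe1 -0.040 in FGF1 against DSS and Hsp90ab1 0.046 in FGF1 against control. Equal totals gave Hspe1 -0.025 in DSS against control, and upper quartile scaling 15 genes and Hspe1 -0.0031 in FGF1 against DSS. A filter of 5 FPKM called 681, 16 and 0 genes in the 3 comparisons. In FGF1 against control, pseudocounts of 0.1 and 0.5 called 0 and 1 genes, no filter 50, no trend 28 and a fit to the 2 groups 38; that fit called 3 in FGF1 against DSS. The replicate block called 1028, 2 and 1 genes and 9 network genes lower, and kept 4 of the 9 genes lower.

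Among genes without a call, signs turned with single libraries or a pair left out. The ranges in DSS against control were -0.046 to 0.12 for Hspe1 and -0.12 to 0.0070 for Hspa8. In FGF1 against DSS they were -0.054 to 0.12 for Hspe1, -0.10 to 0.40 for Hsp90aa1 and -0.042 to 0.17 for Hspd1, and in FGF1 against control -0.019 to 0.15 for Hspe1, -0.10 to 0.033 for Hsp90ab1 and -0.16 to 0.018 for Dnajb1. Depth is unknown, so no detection limit was set.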
